A study of Mus musculus with 4 samples.

Results

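Glutathione transferases join the tripeptide glutathione to electrophilic compounds, which makes carcinogens, drugs and products of lipid peroxidation more water-soluble and ready for export. The soluble enzymes form classes named by Greek letters, and a separate membrane-bound class sits in the endoplasmic reticulum and the mitochondrial outer membrane. Many of their genes respond to the transcription factor NRF2 through antioxidant response elements, and in the colon the enzymes meet compounds from food and bacteria. Of 10 family members chosen by name (Gsta3, Gsta4, Gstm1, Gstm2, Gstm3, Gsto1, Gstp1, Gstt1, Gstk1 and Mgst1), 9 were matched to a probe through the RefSeq accession given on the array. Gstk1, the class kappa enzyme of mitochondria and peroxisomes, had no match and is not analysed here. The 9 genes had 13 of the 41174 distinct gene probes, and all 13 were among the 27055 probes bright enough to be tested.

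The samples were total RNA of scraped colonic mucosa from C57BL/6 mice aged 90 days (P90) and 30 days (P30), with no treatment or allele named for either age. Each of 4 two-colour arrays, a, b, e and k, carried 1 RNA of each age, and the P90 RNA carried Cy3 except on array e, where it carried Cy5. Values listed for all 4 arrays follow the order a, b, e, k. The labels call the pairs independent without saying how many animals they came from, so the spread measured here is that between 4 pairs. Every value called log2 P90/P30 is a log2 ratio, negative where P90 was lower, and every level is a normalised signal in arbitrary units, which can be compared between ages for 1 probe but not between probes.

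Between 55.6% and 69.3% of gene spots stood well above background in the P90 channel, against 64.6% to 71.0% in the P30 channel. The ratios of array b ran against those of array a across all probes (Pearson r = -0.303 over probes, which are not replicates), and also against e (r = -0.27) and k (r = -0.17). Among the other arrays r was positive, at 0.58 for a and e, 0.43 for a and k, and 0.30 for e and k. The labelled direction was kept, because the labels state the dyes. Markers of colonic epithelium were bright at both ages, with 16 of 17 listed genes tested and summed levels from 661571 to 932009 at P90 and from 582989 to 729640 at P30. Of these, Krt8, Krt18 and Lgals4 were saturated at both ages on all 4 arrays. Krt19, Krt20, Vil1, Car1, Aqp8 and Tff3 were saturated at P30 on all 4, so these sums cannot compare the ages. Fibroblast and matrix markers (12 of 12 tested) summed to between 3199 and 35238 at P90 and to between 13171 and 104798 at P30. Adipocyte markers (8 of 9 tested, Lep not bright enough) summed to 196539 at P90 on array e, to between 6388 and 14916 at P90 on the other arrays, and to between 3801 and 12832 at P30. In such bulk RNA, fewer cells of a type and less RNA per cell cannot be told apart.

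No member passed the test at an adjusted p below 0.05, and neither did any of the 27055 probes (0% called; limma, Benjamini-Hochberg over all probes). An unadjusted limma p below 0.05 was found for 4 of the 13 member probes, both of Gsta3 and both of Mgst1, all 4 lower at P90, and for 8.05% of all probes (5.17% lower and 2.88% higher at P90). The same 4 probes lay below 0 on all 4 arrays, as did 7.75% of all probes, and no member probe lay above 0 on all 4, as did 6.57%. By genes, 2 of the 9 members were below 0 on all 4 arrays and none above, beside 7.98% and 6.15% of all genes. The median of the 9 members, each by its brightest probe, was -0.20 on the log2 scale, beside -0.020 over all 20825 genes and transcripts. By array the members' median was -0.55, -0.045, -0.15 and 0.0034, with array a lowest. The -0.20 and the medians on b and k were those of the brighter Gstm1 probe. The median on e was that of the brighter Gstp1 probe. Both probes were at or near the scanner's limit there. The brightest unsaturated probes, of 8 members, had a median of -0.22, and of -0.57, -0.12, -0.085 and -0.15 by array. Without array a, e or k the count of 4 probes was 2, without array b it was 5, and without array a the members' median was 0.030.

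**Figure D1:**
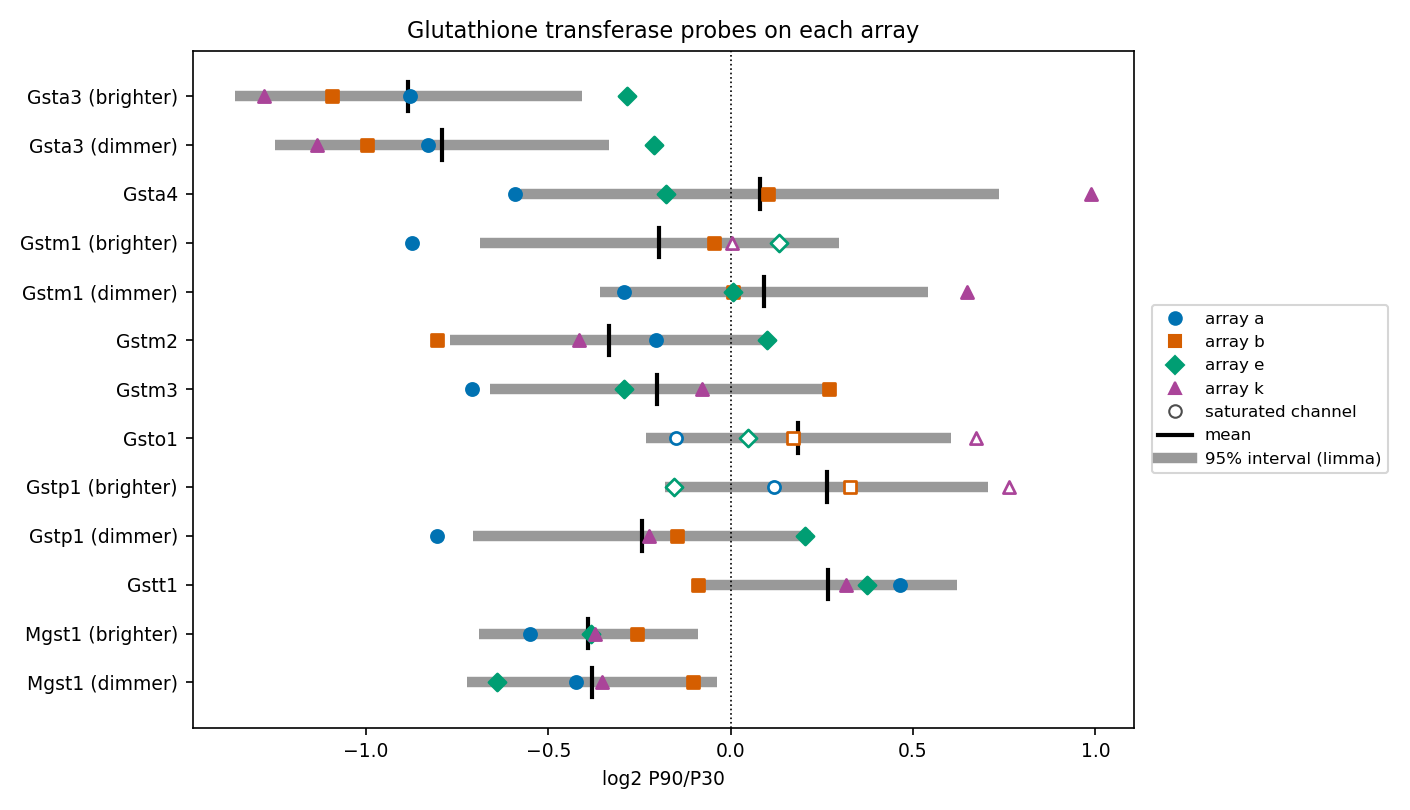
Log2 P90/P30 of the 13 probes of 9 glutathione transferase genes on the horizontal axis, 1 marker per array, with the mean over 4 arrays (black bar) and limma's 95% interval (grey bar); open markers have a saturated channel. Both probes of Gsta3 and of Mgst1 lie below 0 on every array, while the probes of the other genes fall on both sides.

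The promoters of these 2 genes are shown because both hold the core of the antioxidant response element, searched as TGACNNNGC on both strands of windows from 250 bases before to 50 bases after the start (sequences from RefSeq, build GRCm38.p6). Only the 250 bases before the start are printed, 5′ to 3′ on the gene's strand, with the match in capitals.
Gsta3, chr1:21240335-21240584, plus strand: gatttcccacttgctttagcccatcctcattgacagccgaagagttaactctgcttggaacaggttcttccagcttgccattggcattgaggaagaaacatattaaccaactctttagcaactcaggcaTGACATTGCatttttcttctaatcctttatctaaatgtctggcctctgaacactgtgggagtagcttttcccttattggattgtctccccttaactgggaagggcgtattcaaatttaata
Mgst1, chr6:138140277-138140526, plus strand: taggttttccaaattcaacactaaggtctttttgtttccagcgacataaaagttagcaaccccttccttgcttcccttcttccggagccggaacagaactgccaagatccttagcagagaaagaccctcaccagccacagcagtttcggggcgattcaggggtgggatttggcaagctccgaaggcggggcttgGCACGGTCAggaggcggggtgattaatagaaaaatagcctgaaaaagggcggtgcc

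The match began at position -121 from the start in Gsta3, on the forward strand, and at -56 in Mgst1, on the reverse strand. Of the 10 named members, Gsta4 had no entry in the promoter table. The 9 with an entry, which include Gstk1, had 11 windows. The core was found in 2 of the 11, those of Gsta3 and Mgst1, and in 12.4% of all 32851 windows. A looser form that contains it, TGANNNNGC, was found in 5 of the 11, those of Gsta3, Mgst1, Gstm3, Gstt1 and Gstp1, and in 41.3% of all windows. The core of the xenobiotic response element, GCGTG, was found in 3 of the 11, of Gstm1 and Gstp1, and in 32.4% of all windows. The motifs were searched with the ratios already known, and a match is a stretch of letters, not a measured binding site.

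Gsta3 encodes a class alpha enzyme that in the mouse detoxifies the mould toxin aflatoxin. Its brighter probe had levels of 1940.1, 1734, 3112 and 1437 at P90, against 3570.3, 3698, 3786 and 3487 at P30. Every P90 level was below every P30 level, as for 1.68% of all probes (the reverse held for 0.791%), and the P30 levels lay within a narrow range while the P90 levels did not. The log2 P90/P30 was -0.88, -1.09, -0.28 and -1.28. Array e, the one with exchanged dyes and with the high adipocyte markers at P90, thus held the smallest difference. Both traits mark the same array, so their parts in it cannot be told apart. The mean was -0.88 ± 0.43 (SD, n = 4; limma 95% interval -1.36 to -0.41), a P90 signal 0.542 times that at P30.

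The limma test gave Gsta3 an unadjusted p of 0.00405 and an adjusted p of 0.585, lower at P90 in 4 of 4 pairs. Its dimmer probe gave a mean of -0.79 ± 0.41 (SD, n = 4) and an limma adjusted p of 0.585. Levels for that probe were 1402, 1336, 2253 and 1001 at P90, against 2489, 2665, 2605 and 2199 at P30. Here the P90 level on array e exceeded the P30 level on array k, so the ages overlapped, although each array by itself had P90 lower. The 2 probes differed by at most 0.14 on any array. With the sign of array b turned, the brighter probe's mean was -0.34, and over all alternatives its limma adjusted p ran from 0.127 to 0.9998.

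Gsta4, the other class alpha member, encodes an enzyme with high activity towards 4-hydroxynonenal, a product of lipid peroxidation. Its probe was printed in 10 spots on each array, which shows the error within an array directly. P90 levels were 516, 926, 694 and 1374, against P30 levels of 778, 863, 785 and 693. The log2 P90/P30 was -0.59 ± 0.073 on array a (SD over 9 spots, 1 spot marked as an outlier left out), 0.10 ± 0.047 on b, -0.18 ± 0.036 on e and 0.99 ± 0.069 on k (SD over 10 spots each). No 2 arrays overlapped in the values of their unmarked spots. The SD between arrays was 0.67, which is 11.5 times the median SD over the spots of an array. The mean over arrays was 0.080 ± 0.67 (SD, n = 4; limma adjusted p = 0.963). Its sign hung on single arrays, with 0.30 without array a and -0.22 without array k.

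**Figure D2:**
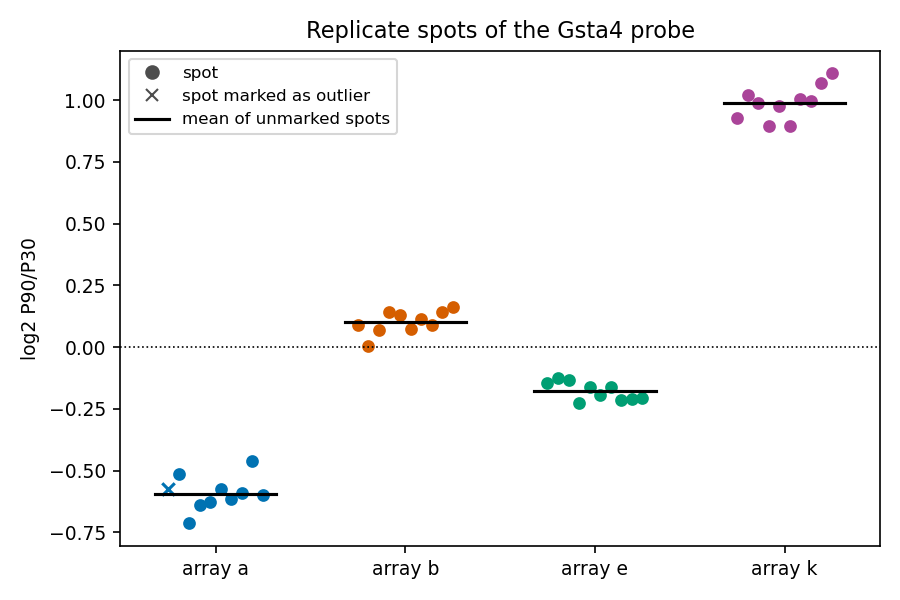
Log2 P90/P30 of the 10 spots of the Gsta4 probe (vertical axis) on each of the 4 arrays (horizontal axis), with a bar at the mean of unmarked spots and a cross for the spot marked as an outlier. The spots of an array lie close together while the array means run from -0.59 on a to 0.99 on k.

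Mgst1 encodes the membrane-bound microsomal enzyme, which is a transferase and also reduces lipid hydroperoxides. The brighter probe had P90 levels of 11869.8, 13201, 14738 and 12242, against P30 levels of 17379, 15773, 19219 and 15839.6. The dimmer probe had P90 levels of 9899.8, 11001, 10418 and 10451, against P30 levels of 13291, 11819, 16238 and 13343. With both probes every P90 level was below every P30 level, as for 1.68% of all probes. The log2 P90/P30 of the brighter probe was -0.55, -0.26, -0.38 and -0.37. Its mean of -0.39 ± 0.12 (SD, n = 4; limma 95% interval -0.69 to -0.091) had the smallest SD of the 13 member probes. The dimmer probe gave -0.43, -0.10, -0.64 and -0.35, with a mean of -0.38 ± 0.22.

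The limma p of the brighter Mgst1 probe was 0.0191 unadjusted and 0.594 adjusted, and that of the dimmer probe was 0.0347 unadjusted and 0.612 adjusted, with P90 lower in 4 of 4 pairs for both. The mean lay nearer to 0 than that of Gsta3, their intervals overlapped, and the difference between the genes was not tested. The size of the Mgst1 difference moved with the scaling. It was -0.72 with median centring in place of an intensity-dependent correction, and -0.25 with the deposited log ratios. The median of all probes was itself -0.20 with median centring. Both Mgst1 probes were among the bright probes, those with a mean log2 intensity of at least 13. The median of the bright probes also moved, from -0.023 in the main fit to -0.34 with median centring and 0.14 with the deposited log ratios.

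**Figure D3:**
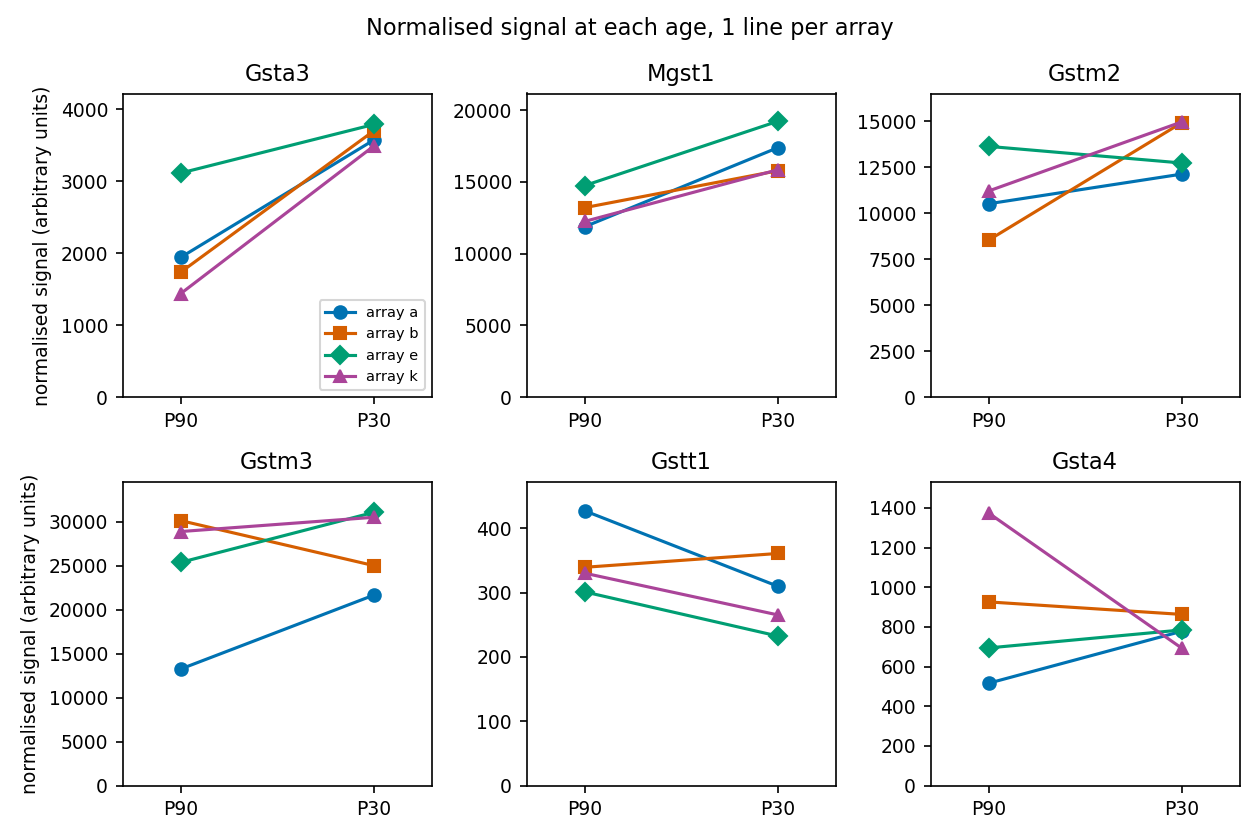
Normalised signal in arbitrary units (vertical axis, from 0) of 6 members by their brightest probe at P90 and P30, 1 line per array. For Gsta3 and Mgst1 all 4 lines climb towards P30 and the ages do not overlap, as for 1.68% of all probes. For Gstm2, Gstm3, Gstt1 and Gsta4 the lines run both ways.

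The class mu genes Gstm1, Gstm2 and Gstm3 lie on chromosome 3 and encode cytosolic enzymes with broad activity against electrophiles. Their transcripts are alike in sequence, so a probe for one may also bind another, and the array's files give no probe sequences to check this. Gstm2 had P90 levels of 10521, 8541, 13643 and 11215, against P30 levels of 12135, 14933, 12739 and 14975. P90 was lower on a, b and k and slightly higher on e, and the ages overlapped. Its mean log2 P90/P30 was -0.33 ± 0.38 (SD, n = 4; limma adjusted p = 0.656), and it was -0.17 without array b and 0.070 with array b turned.

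Gstm3 had P90 levels of 13245, 30105, 25359 and 28861, against P30 levels of 21639.8, 24993, 31043 and 30481. The ages overlapped, array a held the lowest values of both, and array b alone had P90 higher. The mean log2 P90/P30 was -0.20 ± 0.41 (SD, n = 4; limma adjusted p = 0.805), and -0.034 without array a.

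Gstm1 was close to the limit of the scanner. The P30 signal of its brighter probe was saturated on array k and stood at 65192 on a and 65338 on b, where the highest Cy5 signal is 65507, and its P90 signal was saturated on e. A signal at or near the ceiling understates the age that it belongs to. The measured log2 P90/P30 of that probe was -0.87, -0.045, 0.13 and 0.0034, with a mean of -0.20 ± 0.46 (SD, n = 4; limma adjusted p = 0.832) that turned to 0.030 without array a.

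The dimmer Gstm1 probe was far from the ceiling. Its P90 levels were 1636, 3138, 2214 and 3750.3, against P30 levels of 2005, 3122, 2203 and 2393. Arrays b and e had nearly equal levels at the 2 ages, array a had P90 lower and array k had P90 higher. The mean log2 P90/P30 was 0.092 ± 0.40 (SD, n = 4; limma adjusted p = 0.932), opposite in sign to the mean of the brighter probe. Without array k it was -0.093 and without array a it was 0.22. The probes differed by -0.58 on array a and -0.64 on array k (brighter minus dimmer), and by -0.052 on b and 0.12 on e.

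Gstp1, the class pi gene, encodes the enzyme that is prominent in many epithelia and also binds stress kinases. Its brighter probe was saturated at P90 on arrays b, e and k and at P30 on all 4 arrays, so its measured ratio, drawn with open markers, compares signals at the scanner's limit and no fold is given for it. The dimmer probe had no saturated spot, with P90 levels of 9859, 20728, 20587 and 18952, against P30 levels of 17217, 22952, 17879.8 and 22146. P90 was lower on a, b and k and higher on e, and the ages overlapped. Its mean log2 P90/P30 was -0.24 ± 0.42 (SD, n = 4; limma adjusted p = 0.758), with -0.80 on array a, and the mean was -0.056 without that array. Closely related pi-class transcripts may bind the same probes.

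Gsto1, the class omega gene, encodes an enzyme that reduces dehydroascorbate and removes glutathione from proteins rather than mainly conjugating toxins. Its single probe was saturated at P30 on arrays a, b and k and at P90 on array e, which are the Cy5 channels in each case. The measured log2 P90/P30 was -0.15, 0.17, 0.048 and 0.67. On arrays a, b and k the true ratio can only be lower than measured, and on e only higher, apart from the shift that normalisation adds. The direction for Gsto1 is therefore not settled by these arrays.

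Gstt1, the class theta gene, encodes an enzyme that acts on small halogenated compounds, and its probe was the dimmest of the members. P90 levels were 427, 339, 301 and 330.2, against P30 levels of 309.9, 361, 233 and 265. P90 was higher on a, e and k and slightly lower on b, and the ages overlapped. The mean log2 P90/P30 was 0.27 ± 0.24 (SD, n = 4; limma 95% interval -0.088 to 0.62; adjusted p = 0.658). With median centring the Gstt1 mean was -0.071.

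**Figure D4:**
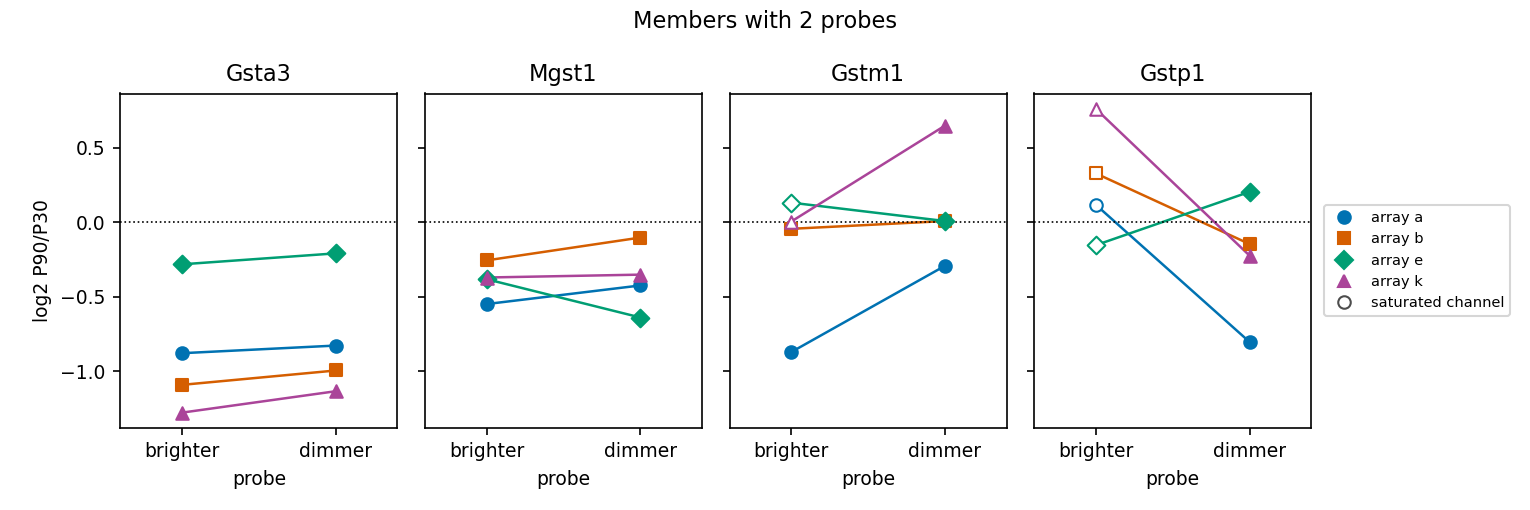
Log2 P90/P30 (vertical axis) of the brighter and the dimmer probe of the 4 members that have 2 probes, 1 line per array, open markers with a saturated channel. The lines of Gsta3 and Mgst1 stay below 0 at both ends, whereas those of Gstm1 and Gstp1, whose brighter probe reaches the scanner's limit, fall on both sides of it.

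In a list of other glutathione transferases, 16 of 18 were tested, with a median log2 P90/P30 of -0.040 (-0.020 over all genes), and none passed the test or had an unadjusted limma p below 0.05 (8.11% of all genes had one). Gsta1, a class alpha paralog, was at -0.39 ± 0.38 (SD, n = 4), Gstm5 of class mu at -0.32 ± 0.38, and Gstcd, which carries a transferase-like domain, at -0.25 ± 0.13 with 4 of 4 arrays below 0, but this dim probe was at -0.70 with processed signals and -0.75 with the deposited log ratios. The brightest members of that list were Mgst2, saturated at P30 on 2 arrays, at -0.019 ± 0.39, and Mgst3 at 0.14 ± 0.40, both membrane-bound relatives.

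Across 5 lists of glutathione and antioxidant genes, 90 of 96 genes were tested. None passed the adjusted test, and 8 (8.89%) had an unadjusted limma p below 0.05, of which 7 were lower and 1 was higher at P90, a share near the 8.11% of all genes. The median over the 90 genes was -0.077 on the log2 scale.

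Of the 19 tested genes for glutathione synthesis and recycling (median -0.044), 2 had an unadjusted limma p below 0.05. The log2 P90/P30 of Ggct, which opens gamma-glutamyl peptides in glutathione turnover, averaged -0.59 ± 0.29 (SD, n = 4) with all arrays below 0. Chac2, which degrades glutathione in the cytosol, was at -0.67 ± 0.61 with 0.15 on array b, and at -1.18 with the deposited log ratios. The surface enzyme gene Ggt1 was at -0.41 ± 0.49, and the bright genes Ggt6 and Dpep1, a dipeptidase, were at 0.12 ± 0.25 and 0.16 ± 0.33.

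Among 24 genes of peroxide defence (median -0.038), Gpx8, a glutathione peroxidase of the endoplasmic reticulum, was at -0.87 ± 0.45 (SD, n = 4) with all arrays below 0, and at -1.56 with the deposited log ratios. Gpx2, the glutathione peroxidase of the gut epithelium, averaged -0.58 ± 0.43, with -0.996 on array a, -0.11 on array k and 1 array saturated at P30. Gpx7 was at -0.37 ± 0.32. The brightest genes, Sod1 and Prdx6, were saturated at P30 on 4 and 3 arrays.

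The 22 regulators and other targets of NRF2 had a median of -0.17. By array it was -0.42, 0.24, -0.11 and -0.20, thus above 0 on b. Among them Nqo1, a quinone reductase used as a marker of that pathway, averaged -0.62 ± 0.45 (SD, n = 4). Its value was -1.16 on array a and -0.057 on array b. Osgin1, an oxidative stress-induced gene, was at 0.65 ± 0.53 with all arrays above 0 and its second probe at 0.66. Fth1, the ferritin heavy chain gene, and Taldo1, of the pentose phosphate pathway, were saturated at P30 on 4 and 3 arrays. The 9 conjugate exporters had a median of -0.13, and of -0.25, 0.37, -0.096 and -0.39 by array. Of these, Abcc2, the pump of the apical membrane, was at -0.49 ± 0.33 and dim. It was at -0.87 under the normexp offset of 10 and at -1.87 from the deposited log ratios. Abcc4 was at -0.45 ± 0.35, but the second probe of Abcc4 was at 0.057. Abcc1 was at 0.26 ± 0.25, and the brightest exporters Abcc3 and Abcg2 were at 0.068 ± 0.25 and -0.12 ± 0.80.

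**Figure D5:**
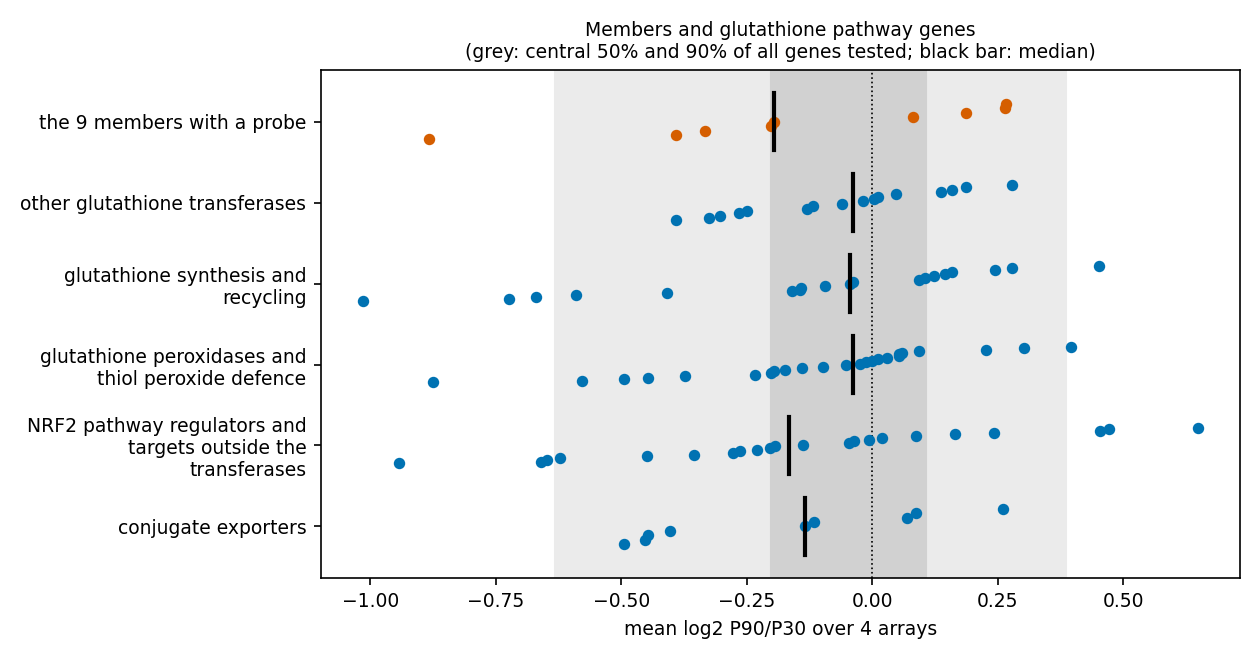
Mean log2 P90/P30 over 4 arrays (horizontal axis) of the 9 members with a probe and of the genes in 5 related lists, 1 point per gene, black bars at the medians and grey bands for the central 50% and 90% of all genes tested. Left of the wider band lie Gsta3, alone among the members, and the list genes Anpep, Nfe2l2, Gpx8, Gclc, Chac2, Me1 and Ugdh. Right of it lie Osgin1, Ephx1 and Chac1, and also Fth1 and Sod1. Both Fth1 and Sod1 were saturated at P30 on 4 arrays and at P90 on 3. Their measured ratios thus compare signals at the scanner's limit. The list medians, from -0.17 to -0.038, lie inside the narrower band.

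By the root mean square difference of log2 P90/P30 over the 4 arrays, the 3 genes nearest to Gsta3 among 13906 named genes were Rrm2, a subunit of the ribonucleotide reductase, at 0.24, Spats2l at 0.27 and Dicer1, the microRNA-processing nuclease, at 0.29. Of the 13906 genes, 0 lay within 0.2 of Gsta3. Each of the 3 lay below 0 on every array and, like Gsta3, nearest to 0 on array e. They were picked for being close to Gsta3 on these arrays, so this is no separate result. With 4 arrays such a likeness is a description of these arrays only.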

How the data were processed

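The members and gene lists were chosen with earlier results of these data known. Per the file headers, the deposited scanner files hold spot intensity (median of spot and local background per dye) and processed signals from Agilent Feature Extraction 10.5.1.1; the submitters' processing notes give 8.5.1.1. The log10 ratios deposited with them put Cy5 over Cy3. The marks for outliers, background and saturation, which have no unit (other), were used as deposited. The deposited value table matched those ratios, as log2 P90/P30, within 0.01 for 80.0% to 87.0% of probes per array (r = 0.882 to 0.999), with uncentred medians of 0.21, -0.17, 0.049 and 0.17 on arrays a, b, e and k. What was done to the other values is not given in the sources used here.

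Probes were named through RefSeq accessions (25097 of 41174). Median spot and background signals were background-corrected with normexp (offset 50) and loess-normalised within arrays (span 0.3, with control spots given no weight), using R 4.3.3 and limma 3.58.1. Outlier spots were left out, saturated spots kept and spots of a probe averaged. Probes well above background at either age on at least 3 arrays were tested against 0 with lmFit and eBayes, adjusted by Benjamini-Hochberg over all probes. Levels came from Aquantile scaling after loess. The brightest probe stood for its gene. Named pathway genes were those past the adjusted test, or else the 3 with the smallest p and the 2 brightest in each list. An exact sign-flip test over 4 arrays cannot go below p = 0.125 (two-sided), so none was used. The fit was tested on simulated data. All arrays shared a slide, so no batch could be tested.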

Additional observations from a re-analysis of the deposited data

Results flagged for a closer look

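Of 42 probes described, 1 had an array that stood apart from the other arrays by Dixon's test, where chance alone gives about 1 in 20. That probe, of Anpep, was among the 42 because its values had been seen. Its flag is therefore a description and cannot be set against that rate. Anpep, which encodes a surface peptidase, had a log2 P90/P30 of -4.07 on array k, while arrays a, b and e were at -0.24, 0.45 and -0.20. The gap to the nearest array was 0.848 of the whole range, above the 95% limit for 4 samples. The mean of Anpep was 0.0041 without array k. Genes outside the glutathione lists were also low on array k, among them Apoa1 at -4.04 and Slc26a3 at -3.78.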

How the results depend on the processing

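The number of pairs, saturation of bright probes and dim P90 signal on arrays a and k limit these values. Each array is a pair, so the test of its log2 ratios against 0 is already paired and has no further block. No member probe was called under any of 20 alternatives. Leaving out arrays b and e together and taking unsaturated probes only were chosen after seeing the data. Both probes of Gsta3 (from -1.27 to -0.29) and of Mgst1 (from -0.72 to -0.24), Gstm3 and the dimmer Gstp1 probe kept their direction under all of theirs. Of 13 member probes, 4 had an unadjusted limma p below 0.05; 2 did so with the smaller normexp offset of 10, processed signals, deposited log ratios, the value table, 1 probe or the mean of probes per gene (where each gene counts once), an intensity trend, array b turned, or arrays b and e left out, and from 2 to 5 with 1 array left out. Among all probes 3 were called with the smaller offset, processed signals, deposited log ratios and the value table. The members' median was -0.49 with median centring, 0.039 with deposited log ratios or the value table, 0.029 with array b turned, -0.33 without saturated spots, -0.31 without arrays b and e, -0.087 with a dye term, -0.052 with the mean of probes per gene, and from -0.24 to 0.030 with 1 array left out; with unsaturated probes only (8 members) it was -0.22.

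Signs turned as follows, for means that were not called, and the cause was not tested. With deposited log ratios or the value table, the brighter Gstm1 probe was at 0.039, Mgst2 at 0.185 and Abcg2 at 0.037. With median centring Gsta4 was at -0.32, the dimmer Gstm1 probe at -0.31, Gsto1 at -0.096, the measured ratio of the saturated Gstp1 probe at -0.015, Gstt1 at -0.071, Mgst3 at -0.16, Ggt6 at -0.20, Dpep1 at -0.15, Taldo1 at -0.11, Abcc1 at -0.14, Abcc3 at -0.26 and Glrx at -0.13. Without saturated spots Mgst2 was at 0.13, and with a dye term Gsta4 was at -0.0056. With array b turned Gstm2 was at 0.070, Gstm5 at 0.082 and Abcc3 at -0.11, and Abcc3 was at -0.14 without arrays b and e. With 1 array left out, Gsta4 ran from -0.22 to 0.30, the Gstm1 probes from -0.30 to 0.030 (brighter) and from -0.093 to 0.22 (dimmer), Mgst2 from -0.13 to 0.16, Mgst3 from -0.011 to 0.31, Abcc3 from -0.031 to 0.15, Abcg2 from -0.44 to 0.16 and Anpep from -1.50 to 0.0041.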

Other observations

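Some genes of the glutathione pathway differed more between arrays than any family member; they were picked after their values were seen. Nfe2l2, which encodes NRF2 itself, had a log2 P90/P30 of -2.35, 0.92, -1.45 and -0.88 (arrays a, b, e, k), with a mean of -0.94 ± 1.38 (SD, n = 4) and a second probe at -0.81. Gclc, the catalytic subunit of the first enzyme of glutathione synthesis, was at -1.58, 0.76, -0.85 and -1.23 on the same arrays, with a mean of -0.72 ± 1.03. Catalase (Cat) was at -0.94, 0.90, -1.30 and -0.45. All 3 were above 0 on array b and below 0 on the other arrays, while Gsta3 and Mgst1 were below 0 on b as well. The summed fibroblast and matrix markers were also higher at P90 on array b alone, at 35238 at P90 against 13171 at P30. So were the summed endothelial markers (4666 against 2173) and myeloid markers (4572 against 4131). The part of any of these cell types in the values of Nfe2l2, Gclc and Cat was not tested. Anpep, a surface peptidase that splits cysteinylglycine, was at -4.07 on array k and between -0.24 and 0.45 on the other arrays. A low value on array k was not particular to Anpep. Among the marker genes, Apoa1 was at -4.04 on k and between -0.079 and 0.23 on the other arrays. Slc26a3 was at -3.78 on k and between -0.93 and 0.38 on the others. The limma adjusted p of Nfe2l2, Gclc, Cat and Anpep ran from 0.658 to 0.775.

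Glrx, glutaredoxin, was at 0.29, 0.29, 0.13 and 0.19, with a mean of 0.23 ± 0.078 (SD, n = 4; limma adjusted p = 0.65).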
